A study of Mus musculus with 7 samples.

Results

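Interferon gamma response genes and genes of major histocompatibility complex (MHC) class I presentation were measured in mouse CD4+ T cells with or without Kdm6a. The members were 35 genes chosen by symbol: guanylate-binding proteins (GBPs), immunity-related GTPases (IRGs), immunoproteasome subunits, class I presentation genes, chemokines and their regulators. The deposited table of 39017 genes held a row for 33 of them, and 32 were among the 15968 genes that passed a filter on low counts. Gbp5 and Gbp6 had no row under their identifiers and were not analysed here, and Cxcl9 did not pass the filter. Each of the 32 tested members had at least 426 reads in every library, the lowest being Psme2 in cKO replicate 2.

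All mice were C57BL/6 females that carried floxed/floxed Kdm6a and had experimental autoimmune encephalomyelitis (EAE), an induced model of multiple sclerosis. The 4 conditional knockout libraries (cKO, replicates 2, 3, 7 and 12) came from mice with CD4-Cre (+/-), and the 3 littermate controls (WT, replicates 10, 14 and 19) were CD4-Cre (-/-). The CD4-Cre transgene acts from thymic development onwards, so CD8 T cells of these mice also undergo deletion. Since no control carried Cre, effects of Cre and of the deletion cannot be told apart. Lymph node cells of EAE day 17 were kept for 18 hours with 25 µg/mL of a myelin oligodendrocyte glycoprotein peptide (residues 35 to 55) before CD4+ cells were sorted, so members were read in cells that had shared a dish with other lymph node cells. Where single libraries are listed, they follow the order of replicate number.

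Interferon gamma is the main cytokine of type 1 helper T cells. It binds a receptor built from the products of Ifngr1 and Ifngr2, which activates the kinases JAK1 and JAK2. The signal acts on target genes through gamma-activated sites (GAS) and induces IRF1, which binds interferon-stimulated response elements (ISRE). The response includes GTPases that attack intracellular pathogens, proteasome subunits and transporters that make and load peptides for class I, and chemokines that attract T cells.

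The libraries held 17910536 to 28697579 counts. Kdm6a itself stood at 96.3 to 104 CPM (counts of a gene scaled to a common library total) in cKO and 113 to 125 in WT, a log2 fold change of -0.24 ± 0.06 (SE, edgeR quasi-likelihood test, adjusted p = 0.0414), and this call did not hold without any 1 of cKO replicates 3, 7 and 12 (adjusted p = 0.0985, 0.0811 and 0.0538) or of WT replicates 10, 14 and 19 (0.142, 0.173 and 0.0604), with B cell, macrophage and dendritic cell markers as a covariate (0.0907) or without cKO replicates 2 and 7 together (0.11). Whole-gene counts do not show a deletion of some exons. The 10 listed CD4 T cell markers summed to 3736 to 4220.1 CPM in cKO and 3527 to 4018 in WT, while the 9 B cell markers summed to 40.6 to 221 and 41.0 to 93.3 CPM. The 8 monocyte and macrophage markers summed to 25.3 to 84.3 CPM in cKO and 27.6 to 31.7 in WT, and the 8 dendritic cell markers to 17.3 to 31.8 and 14.4 to 19.8. Of these dendritic cell markers, 4 passed the filter, with log2 fold changes from -0.18 to 1.16. At an unadjusted edgeR p under 0.05, 1 of them was higher, as were 11.1% of all genes. Clec9a, which defines a dendritic cell subset, had no reads in any library. Of 7 markers of natural killer (NK) and innate lymphoid cells, edgeR called 4 higher in cKO, all of them Klr receptor genes (Klrb1c, Klre1, Klra1 and Klra7). Ncr1, Gzma and Prf1 on that list were not called, and 1 of the 7 log2 fold changes was below 0, at -0.52. The list summed to 79.5 to 93.4 CPM in cKO against 50.4 to 79.1 in WT. Of 3 measured gamma delta T cell markers, 2 were called higher (summed 12.5 to 29.0 against 5.13 to 10.1 CPM). Among all genes tested, 2.79% were called higher. B cell and macrophage markers were highest in cKO replicate 2, which also had the lowest depth and the largest share of the abundant transcript Gm42418 (9.22% of its counts, against 2.55% to 4.26% in the others). The labels do not say that libraries came from separate mice, and p-values therefore describe spread between these libraries, which may be technical.

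In cKO cells, 3 of the 32 tested members fell and 0 rose, by the edgeR test across all genes. The 3 were Cxcl10, Gbp2 and Gbp3, and no member of the immunoproteasome, class I or IRG groups was past the threshold of 0.05 on the adjusted p. Over all genes tested, 3.64% were called lower and 2.79% higher, or 6.44% in either direction. With unadjusted p-values under 0.05 instead, 10 members were lower and 1, Wars, was higher, where 10.4% and 11.1% of all genes were. DESeq2 called 3 lower and 0 higher and limma voom 2 lower and 1 higher, where DESeq2 called 4.93% and 4.43% of all genes (9.36% in all) and limma voom 5.81% and 5.02% (10.8% in all). The median log2 fold change of the 32 was -0.12, against 0.01 over all genes, and 27 of the 32 values were below 0, as were 47.8% of all genes. With limma voom the median was -0.03 and 21 values were below 0, and without WT replicate 19 they were -0.04 and 21. With the same marker covariate they were -0.04 and 23.

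The promoters of the 3 genes that fell are shown with that of Irf1, a member that was not past the threshold and whose window holds a GAS match. They are RefSeq windows on GRCm38.p6, 250 bases before to 50 after the annotated start, read 5′ to 3′ on the gene's strand: chr5:92348840-92349139 (minus strand) for Cxcl10, chr3:142620413-142620712 (plus) for Gbp2, chr3:142559794-142560093 (plus) for Gbp3 and chr11:53769764-53770063 (plus) for Irf1, the first listed start where there were several. Capitals mark matches, on either strand, to ISRE (GAAA, any 2 bases, GAAA), GAS (TTC, any 3 bases, GAA) or a kappa B element (GGGA, any 4 bases, CC).
Cxcl10: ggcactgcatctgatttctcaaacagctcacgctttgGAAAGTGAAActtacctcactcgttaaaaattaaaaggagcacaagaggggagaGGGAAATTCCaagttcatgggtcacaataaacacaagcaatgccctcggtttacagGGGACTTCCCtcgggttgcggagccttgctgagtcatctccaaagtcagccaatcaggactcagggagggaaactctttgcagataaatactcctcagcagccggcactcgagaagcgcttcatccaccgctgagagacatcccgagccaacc
Gbp2: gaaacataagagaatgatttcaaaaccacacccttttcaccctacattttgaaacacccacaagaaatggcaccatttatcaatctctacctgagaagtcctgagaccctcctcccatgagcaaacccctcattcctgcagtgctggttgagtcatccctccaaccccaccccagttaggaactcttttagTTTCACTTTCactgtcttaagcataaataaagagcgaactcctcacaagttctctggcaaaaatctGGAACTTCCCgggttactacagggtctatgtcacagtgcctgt
Gbp3: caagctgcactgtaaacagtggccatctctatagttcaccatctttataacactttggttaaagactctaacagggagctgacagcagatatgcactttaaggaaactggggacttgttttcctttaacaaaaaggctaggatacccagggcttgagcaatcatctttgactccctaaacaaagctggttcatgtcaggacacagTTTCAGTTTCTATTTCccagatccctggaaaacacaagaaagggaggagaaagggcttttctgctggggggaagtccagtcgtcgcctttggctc
Irf1: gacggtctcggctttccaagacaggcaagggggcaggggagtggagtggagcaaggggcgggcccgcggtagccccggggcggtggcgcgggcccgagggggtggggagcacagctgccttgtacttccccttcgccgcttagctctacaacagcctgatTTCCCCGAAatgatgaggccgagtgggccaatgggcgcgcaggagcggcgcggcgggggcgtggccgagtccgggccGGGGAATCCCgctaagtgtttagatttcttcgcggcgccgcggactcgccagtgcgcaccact

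Each of the 3 promoters of genes that fell held an ISRE match and no GAS match. In Cxcl10 the ISRE match began 213 bases before the start, upstream of kappa B matches that began 159 and 103 bases before it. In Gbp2 the ISRE match began 59 bases before the start and was on the opposite strand, as was a kappa B match inside the transcribed part. In Gbp3, 2 overlapping ISRE matches on the opposite strand began 45 and 39 bases before the start. The Irf1 window held 1 GAS match, which began 90 bases before the start, and a kappa B match near the start.

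RefSeq windows were matched for 27 of the 35 members. Among these, 13 held ISRE, 10 held GAS and 9 held the kappa B element, where 3.49%, 8.47% and 20.5% of all 27025 gene windows did. Genes that were not past the threshold held matches too: Socs1 and Irgm1 had 2 ISRE matches each, and both motifs were found together in Gbp7, Igtp, Irgm2, Tgtp1 and Tgtp2. The windows of 10 members held neither ISRE nor GAS, namely H2-K1, H2-D1, Tap1, Tapbp, Psmb9, Psmb10, Psme2, Ifi47, Cd274 and Cxcl9. A match shows that the letters are present, not that a factor binds there. Only exact matches within 300 bases at the first listed start were searched. A window with no match therefore does not show that a gene lacks such an element. No window was matched for Gbp4, Gbp6, Gbp8, Gbp9, Iigp1, Nlrc5, Tap2 and Wars.

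Cxcl10 showed the largest change of any tested member. It encodes a chemokine that attracts cells bearing the receptor CXCR3, such as type 1 helper T cells. Its level was 29.3, 33.6, 40.7 and 41.1 CPM in the cKO libraries against 106, 154 and 97.7 CPM in the WT libraries. The highest cKO library was therefore below the lowest WT library by more than the whole range of the cKO group. Cxcl10 (chromosome 5, 92346638 to 92348889 on mm10) fell 3.29-fold (log2 -1.72 ± 0.17 SE, adjusted p = 0.00049). Over all alternatives its log2 fold change lay between -1.84 and -1.50 and its adjusted p between 3.62e-22 and 0.00278, the highest with the marker covariate. Myeloid cells are a main source of this chemokine in tissues. The summed markers of monocytes and macrophages were 84.3, 36.4, 44.8 and 25.3 CPM in cKO and 31.7, 28.9 and 27.6 in WT, lower than in WT in cKO replicate 12 alone. Of the 7 tested, edgeR called 0, where it called 2.79% of all genes higher and 3.64% lower. DESeq2 called 1 higher, where it called 4.43% of all genes higher. All 7 log2 fold changes were positive, with a median of 0.93. At an unadjusted edgeR p under 0.05, 3 were higher, as were 11.1% of all genes. The part of myeloid cells in the Cxcl10 values was not tested. In bulk RNA, fewer expressing cells and less RNA per cell cannot be told apart.

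Cxcl9, a second ligand of CXCR3 and a neighbour of Cxcl10 on chromosome 5, was nearly silent. It had 2 to 5 reads in cKO libraries and 4 to 7 in WT libraries, so a difference was not detectable at this depth. Cxcl10 also shares 133 bases of exon with Art3 on the opposite strand, and the use of strand in counting is not given in the sources used here, but Art3 had 443 reads over all libraries together.

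**Figure D1:**
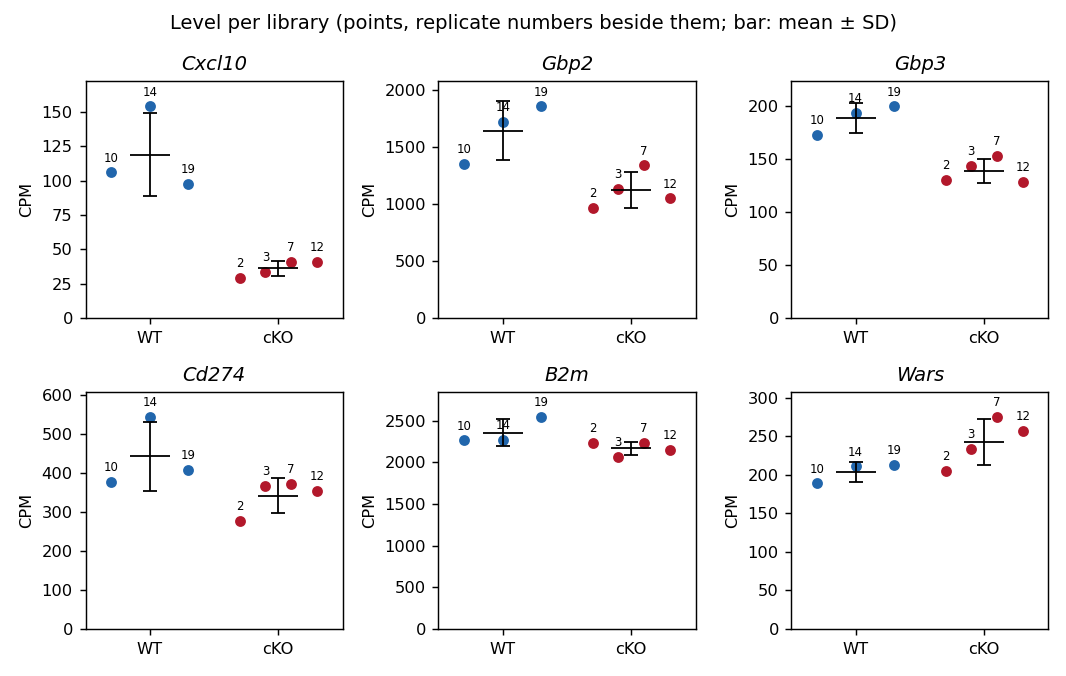
Level of 6 members in each library, in CPM; points are libraries with their replicate numbers, and the bars give mean ± SD of 3 WT and 4 cKO libraries. For Cxcl10, Gbp2, Gbp3, Cd274 and B2m every cKO point lies below every WT point, by a narrow margin for Gbp2, Cd274 and B2m, and for Wars the groups overlap.

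GBPs are large GTPases that coat and help to rupture the vacuoles of intracellular microbes and promote inflammasome activation. Of the 6 measured members, Gbp2 and Gbp3 fell and the other 4 were not past the threshold. The 6 log2 fold changes ran from -0.55 to -0.13 with a median of -0.36. All 6 were also below 0 in each alternative that was run, where the median ranged from -0.41 (without cKO replicate 3) to -0.23 (marker covariate). Gbp2b and Gbp11, GBPs outside the members, were not past the threshold (log2 -0.29 ± 0.09 and -0.53 ± 0.23 SE, edgeR adjusted p = 0.1 and 0.216). Gbp2b was at 179 to 224 CPM in cKO and 229.6 to 275 in WT, without overlap. Gbp11 was at 11.6 to 22.3 and 19.7 to 28.5 CPM, with overlap.

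Gbp2 measured 969, 1131, 1339 and 1049 CPM in the cKO libraries against 1353, 1723 and 1855 CPM in the WT libraries. The groups did not overlap, but cKO replicate 7 and WT replicate 10 lay next to each other. The fall was 1.46-fold (log2 -0.55 ± 0.13 SE, adjusted p = 0.0372). It was not past the threshold without cKO replicate 2 (0.0531), 3 (0.0774) or 12 (0.0762), without WT replicate 14 (0.15) or 19 (0.151), with limma voom (0.0736) and with the marker covariate (0.154), over a full range of 0.000678 to 0.154.

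Gbp3 had 131, 144, 153 and 129 CPM in the cKO libraries and 173, 194 and 200 CPM in the WT libraries, in the same order of replicates. The gap between the groups was wider in proportion than for Gbp2, and each group was tight. Gbp3 fell 1.36-fold (log2 -0.44 ± 0.08 SE, adjusted p = 0.011). The call did not hold without WT replicate 14 (adjusted p = 0.0626) or 19 (0.057) and held in every other alternative, with 3.79e-05 as the lowest adjusted p.

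Gbp2 (142620602 to 142638008), Gbp3 (142560026 to 142573209) and Gbp7 (142530342 to 142550149) all lie on chromosome 3 of mm10, as does Gbp2b. Gbp7 was at 483 to 649 CPM in cKO and 588 to 748 in WT, and the groups overlapped (log2 -0.26 ± 0.12, edgeR adjusted p = 0.225). Gbp4, Gbp8 and Gbp9, on chromosome 5, start within 50 bases of one another and share up to 61 bases of exon, so some reads could be counted for any of them. Gbp4 was at 560.4 to 823 CPM in cKO and 875 to 1019 in WT (log2 -0.33 ± 0.13, adjusted p = 0.173). Gbp8 was at 137 to 225 and 233 to 286 CPM (log2 -0.39 ± 0.15, adjusted p = 0.177, and log2 -0.22 without cKO replicates 2 and 7 together). Gbp9 was at 239 to 326 and 288 to 335 CPM (log2 -0.13 ± 0.11, adjusted p = 0.556). In Gbp4 and Gbp8 the groups did not overlap, and in Gbp9 they did.

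With Gbp4, Gbp8 and Gbp9 summed into 1 row, the log2 fold change was -0.29 ± 0.12 (SE, edgeR adjusted p = 0.211), so the sum was not past the threshold either. A gene model that spans Gbp6 and Gbp10, Gm43302, shares 29% of the exon bases of Gbp6. It was at 96.8 to 108 CPM in cKO and 95.8 to 113 in WT, which is no value for Gbp6 itself.

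**Figure D2:**
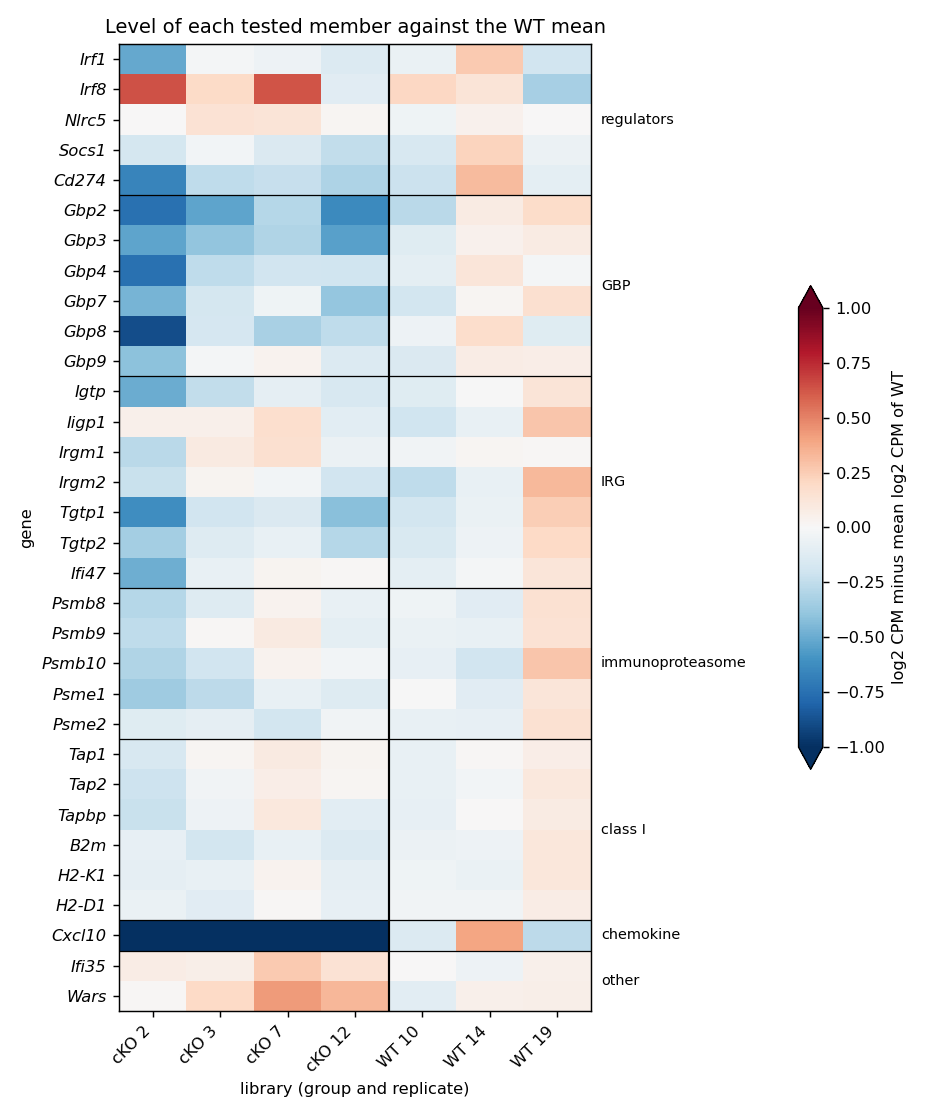
Log2 CPM of the 32 tested members in each library minus the mean of the WT libraries, with genes in rows grouped by role and libraries in columns; blue is below and red above the WT mean, and the colours end at 1 in either direction. Cxcl10 lies beyond the scale in all 4 cKO libraries, the GBP block is bluest in cKO replicate 2, and the class I block is near 0 throughout.

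IRGs are smaller GTPases that disrupt the vacuoles of parasites and bacteria. Irgm1, Irgm2 and Igtp, which is also known as Irgm3, are regulatory members that control the others. None of the 7 was past the threshold by edgeR, DESeq2 or limma voom, and Igtp and Tgtp1 had an unadjusted p under 0.05. Igtp measured 904, 1075, 1195 and 1141 CPM in the cKO libraries against 1170.2, 1269 and 1393 CPM in the WT libraries. Replicate 7 of the cKO group lay above the lowest WT library. The log2 fold change was -0.24 ± 0.10 (SE, edgeR adjusted p = 0.202).

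Tgtp1 and Tgtp2 are near-identical neighbours on chromosome 11, so their shares of reads are uncertain. Tgtp1 was at 87.5 to 122 CPM in cKO and 119 to 160.1 in WT, and Tgtp2 at 84.8 to 102 and 96.5 to 123. Summed, they measured 172.3, 215.6, 223.2 and 188.4 CPM in the cKO libraries against 215.4, 231.7 and 283.4 in the WT libraries, with a log2 fold change of -0.28 ± 0.11 (SE, edgeR adjusted p = 0.187). The groups overlapped in the sum as in each gene. Without WT replicate 19 the log2 fold changes of Tgtp1 and Tgtp2, -0.34 and -0.21 with all libraries, were -0.21 and -0.10. Gm12185, a gene model that overlaps 223 exon bases of Tgtp1 and was chosen after its values were seen, fell from 102 ± 19.3 to 69.4 ± 9.02 CPM (SD, n = 3 and 4; log2 -0.56 ± 0.13, adjusted p = 0.0389). Its call was lost without cKO replicate 2 (0.0603), 3 (0.0773) or 12 (0.0747), without WT replicate 14 (0.125) or 19 (0.145), with limma voom (0.0774), with the marker covariate (0.174) and without cKO replicates 2 and 7 together (0.0597).

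The other IRGs were nearer to equal. Irgm1 was at 619.6 to 834 CPM in cKO and 728 to 759.7 in WT (log2 -0.01 ± 0.10, edgeR adjusted p = 0.961). Iigp1 was at 248 to 301 and 232 to 323 CPM, Irgm2 at 307 to 365 and 301 to 449, and Ifi47 at 594 to 849 and 778 to 907. In each of these 4 genes the groups overlapped, and adjusted p-values lay between 0.637 and 0.961. Igtp and Irgm2 share 162 exon bases on the same strand.

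None of the 6 class I members was past the threshold with edgeR, DESeq2 or limma voom, and 0 had an unadjusted p under 0.05. Their median log2 fold change was -0.06. Per kilobase of exon, B2m, which encodes the light chain of class I molecules, had the highest mean level (2614 CPM per kilobase over all libraries), followed by the heavy chain genes H2-K1 (1341) and H2-D1 (1016). B2m measured 2227, 2068, 2231 and 2144 CPM in the cKO libraries against 2261, 2265 and 2540.5 CPM in the WT libraries. All cKO libraries were below all WT libraries, by 1 narrow step, and the log2 fold change of -0.12 ± 0.07 (SE) was not past the threshold (edgeR adjusted p = 0.358).

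H2-K1 was at 3772 to 4127 CPM in cKO and 3839.7 to 4338 in WT (log2 -0.06 ± 0.07, edgeR adjusted p = 0.719). H2-D1 was at 2487 to 2708 and 2613 to 2825 CPM (log2 -0.06 ± 0.06, adjusted p = 0.644). Both pairs of groups overlapped, and for the sum of these paralogs it was -0.06 ± 0.07 on the log2 scale (adjusted p = 0.705).

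Tap1 and Tap2 encode the transporter that carries peptides into the endoplasmic reticulum, and Tapbp encodes tapasin, which loads them. Tap1 was at 896 to 1071 CPM in cKO and 953 to 1051 in WT, Tap2 at 468 to 568 and 513 to 582, and Tapbp at 809 to 1016 and 893 to 997. For each of the 3 the cKO range reached at least as low as the WT range and overlapped it, and adjusted p-values ran from 0.711 to 0.985. Tap1 lies head to head with Psmb9, with 212 shared exon bases on opposite strands. Antisense gene models also overlap 533 exon bases of Tap2 (Gm15821), 498 of Psmb8 (Gm20496) and 290 of Ifi35 (Gm11626), so reads of these members may be shared if strand was not used in counting.

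The immunoproteasome replaces the standard catalytic subunits with the products of Psmb8, Psmb9 and Psmb10, while Psme1 and Psme2 encode its activator. Psmb8 was at 387 to 484 CPM in cKO and 436 to 526 in WT, Psmb9 at 228 to 290.3 and 258 to 302, and Psmb10 at 108 to 135 and 116 to 160.4. None was past the threshold (edgeR adjusted p = 0.535, 0.767 and 0.597), and of the 5 members DESeq2 and limma voom called 0, with 1 (Psme1) at an unadjusted p under 0.05. Their standard counterparts Psmb5, Psmb6 and Psmb7 had log2 fold changes of -0.03 ± 0.09, -0.01 ± 0.08 and -0.06 ± 0.11 (SE, adjusted p = 0.871, 0.975 and 0.818). On the scale of CPM per kilobase, Psmb8 stood at 4.91 ± 0.504 times Psmb5 in cKO and 5.17 ± 0.405 times in WT (SD, n = 4 and 3), Psmb9 at 2.74 ± 0.36 and 2.83 ± 0.294 times Psmb6, and Psmb10 at 8.16 ± 0.952 and 8.61 ± 1.76 times Psmb7. Transcripts of the inducible subunits thus exceeded their counterparts in each library of either genotype, by ratios that differed less between groups than within them.

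Psme1 measured 212, 226, 258 and 249 CPM in the cKO libraries against 271, 251 and 295 CPM in the WT libraries. Only cKO replicate 7 reached into the WT range (log2 -0.20 ± 0.08 SE, edgeR adjusted p = 0.192). Psme2 was at 23.8 to 26.4 CPM in cKO and 25.5 to 30.1 in WT. Its paralog Psme2b, chosen after its values were seen, held 169 to 206 and 184 to 217 CPM, so reads of Psme2 may be split between these rows in shares that are uncertain.

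Of 5 regulators, 0 were past the threshold by edgeR, DESeq2 or limma voom, and 1, Cd274, had an unadjusted p under 0.05. Irf1, the main secondary activator of the response, measured 767, 1073, 1052 and 991 CPM in the cKO libraries against 1040.4, 1305 and 956 CPM in the WT libraries. Replicate 2 of the cKO group and replicate 14 of the WT group were the extremes, and the remaining libraries intermingled (log2 -0.18 ± 0.14 SE, edgeR adjusted p = 0.498). Nlrc5, which encodes the class I transactivator, was at 588 to 650.3 CPM in cKO and 569 to 605 in WT (log2 0.08 ± 0.06, adjusted p = 0.533). Socs1, a feedback inhibitor of JAK kinases, was at 367 to 428 and 389 to 509 CPM (log2 -0.16 ± 0.09, adjusted p = 0.394).

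Cd274 encodes PD-L1, an inhibitory ligand induced by interferon gamma. It measured 276, 367, 372 and 353 CPM in the cKO libraries against 377, 543 and 408 CPM in the WT libraries. The groups did not overlap, yet cKO replicate 7 and WT replicate 10 were almost level (log2 -0.37 ± 0.14 SE, edgeR adjusted p = 0.158). Without WT replicate 14 the log2 fold change was -0.20 (adjusted p = 0.474). In all, 7 members had all cKO libraries below all WT libraries, namely Cxcl10, Gbp2, Gbp3, Gbp4, Gbp8, Cd274 and B2m, as were 10.7% of all genes. Ifi35 was higher in every cKO library, as were 10.3% of all genes, at 72.3 to 83 against 66.9 to 71.8 CPM (log2 0.14 ± 0.07, adjusted p = 0.27).

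Irf8 and Wars had positive log2 fold changes. Irf8, a transcription factor that B cells and dendritic cells express strongly, measured 135, 99.5, 135 and 80.4 CPM in the cKO libraries against 101, 95.1 and 69.1 CPM in the WT libraries. The B cell markers summed to 221, 94.3, 167 and 40.6 CPM and to 93.3, 69.1 and 41.0 CPM in the same libraries. Both Irf8 and these markers were highest in cKO replicates 2 and 7. For Irf8, the log2 fold change of 0.35 ± 0.19 (SE, edgeR adjusted p = 0.342) was -0.01 with the marker covariate. It was 0.20 without WT replicate 19 and 0.02 without cKO replicates 2 and 7 together. The covariate also holds macrophage and dendritic cell markers, and the part of B cells in the Irf8 values was not tested. Wars, which encodes the tryptophan tRNA synthetase, was at 205, 234, 275 and 257 CPM in cKO and 189, 211 and 213 CPM in WT. Here only cKO replicate 2 lay within the WT range (log2 0.25 ± 0.10, adjusted p = 0.174), and without that library Wars passed the threshold (log2 0.32, adjusted p = 0.0368), as it did with limma voom (0.32, 0.0339).

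**Figure D3:**
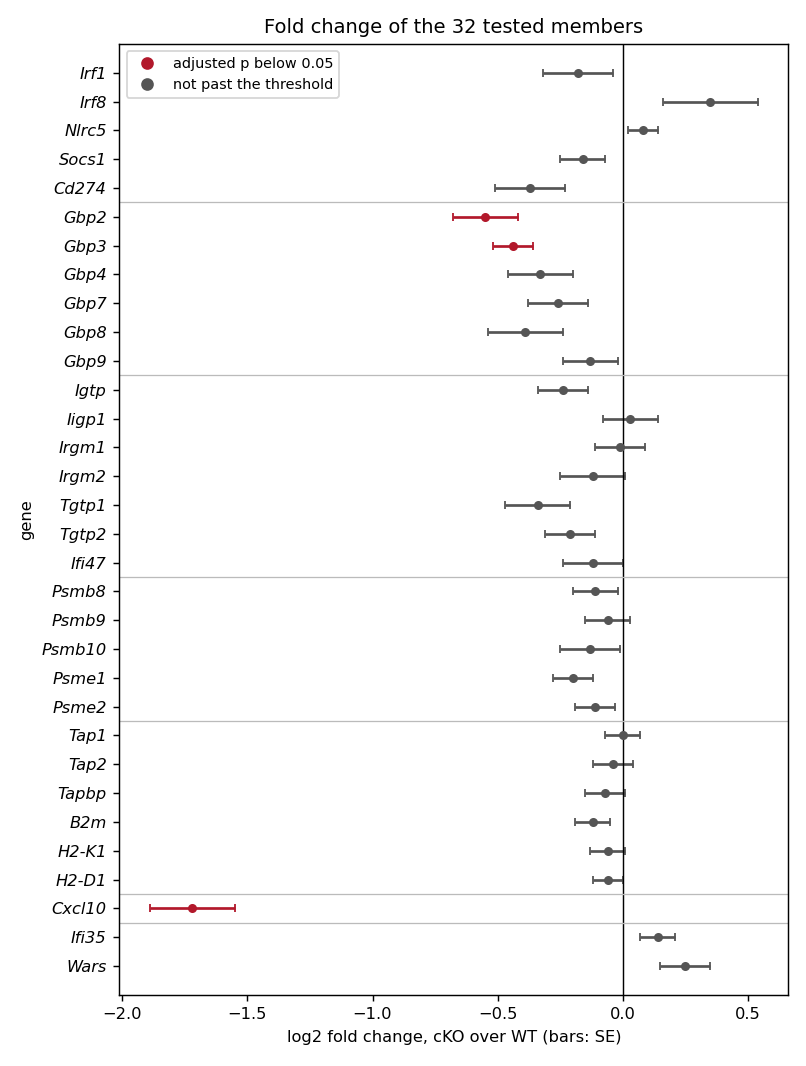
Log2 fold change of cKO over WT for each tested member, with bars for the standard error; red points have an adjusted p below 0.05. Cxcl10 stands far to the left at -1.72, Gbp2 and Gbp3 follow at -0.55 and -0.44, and the class I genes cluster between -0.12 and 0.

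Libraries of 1 genotype differed among themselves in a shared way across the members. Replicate 2 was the lowest cKO library in 24 of the 32 tested members (75% of them, against 31.7% of all genes), and replicate 7 was the highest in 24 (75%, against 19.3%). Among WT libraries, replicate 19 was highest in 22 members (68.8%, against 37.6%). The median deviation of the GBPs from the WT mean on the log2 CPM scale was -0.64, -0.21, -0.24 and -0.32 for the cKO libraries against -0.13, 0.08 and 0.07 for the WT libraries. Over the class I genes that median ran from -0.13 to 0.05 in cKO and from -0.07 to 0.09 in WT. Without cKO replicate 2, the members' median log2 fold change was -0.08 and that of the GBPs -0.24. With the counts of Gm42418 removed these medians were -0.12 and -0.36, as with them. With the B cell, macrophage and dendritic cell markers as a covariate they were -0.04 and -0.23, and with cKO replicates 2 and 7 both left out -0.10 and -0.26.

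Genes that act upstream were read beside the response. Ifng, the gene for the cytokine itself, measured 179, 110, 126 and 726 CPM in the cKO libraries against 48.0, 110.1 and 69.5 CPM in the WT libraries. The value of cKO replicate 3 fell just below that of WT replicate 14, and replicate 12 stood far above the rest (log2 1.91 ± 0.66 SE, edgeR adjusted p = 0.13; log2 0.86, adjusted p = 0.124 without cKO replicate 12). Replicate 12, which had the most Ifng, was the highest cKO library in 2 of the 32 tested members. That was 6.25% of them, against 27.6% of all genes. A relation of Ifng RNA in the sorted cells to the levels of the members was not tested. NK cells and CD8 T cells also make interferon gamma. The NK and innate lymphoid markers summed to 79.5, 93.4, 86.1 and 85.1 CPM in cKO and 50.4, 54.2 and 79.1 in WT, and the 2 CD8 T cell markers to 12.9 to 16.3 and 9.12 to 11.5 CPM, and their part in the Ifng values was not tested. RNA was taken at 1 time point, so the order of these levels in time is not known.

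**Figure D4:**
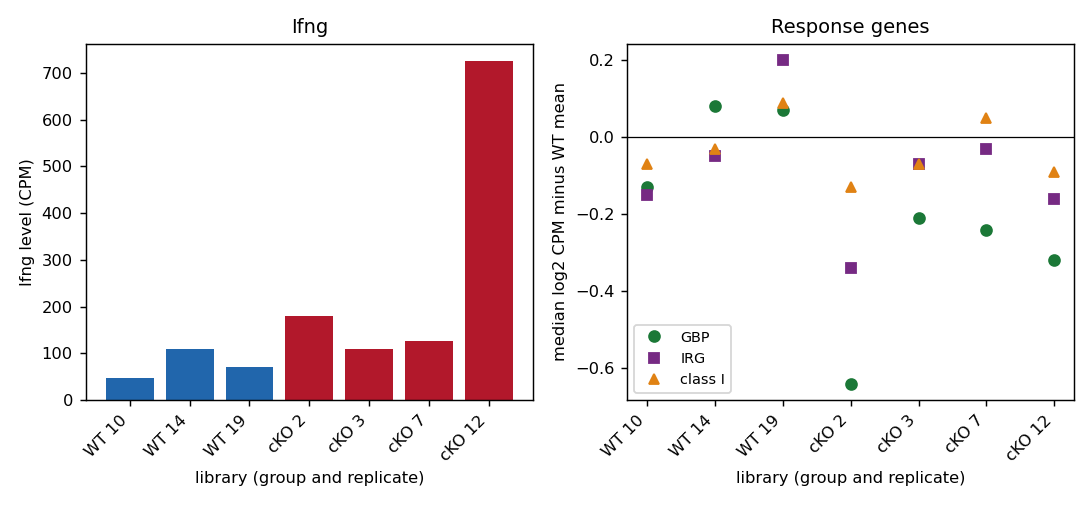
Left, Ifng level in CPM in each library, with WT in blue and cKO in red; right, median log2 CPM of the GBP, IRG and class I members minus the WT mean in the same libraries. Ifng is highest in cKO replicate 12 at 726 CPM, where the GBP median is -0.32, and the lowest GBP median, -0.64, is in cKO replicate 2.

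Ifngr2, the signalling chain of the receptor, was at 37.6 to 50 CPM in cKO and 49.5 to 65.5 in WT (log2 -0.38 ± 0.12 SE, edgeR adjusted p = 0.0977, and 0.0364 with DESeq2). Ifngr1, the ligand-binding chain, was at 535 to 760.2 and 640 to 746 CPM, with overlapping groups (log2 -0.11 ± 0.11, adjusted p = 0.629). The log2 fold changes of the kinase genes Jak1 and Jak2 were -0.07 ± 0.06 and 0.13 ± 0.05, and that of Irf9, part of the type I interferon complex, was -0.01 ± 0.08 (adjusted p = 0.555, 0.16 and 0.958).

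On the list of interferon gamma signalling, at an unadjusted edgeR p under 0.05, 4 of 15 genes were lower and 2 higher, as were 10.4% and 11.1% of all genes. DESeq2 called 4 lower and 0 higher (4.93% and 4.43% of all genes) and limma voom 1 and 0 (5.81% and 5.02%). The median log2 fold change was -0.07. By adjusted p, 1 of the 15 fell and 0 rose with edgeR, against 3.64% and 2.79% of all genes. The 1 that fell was Ptpn2, a phosphatase that removes phosphate from JAK1, at 41.5 to 44.2 CPM in cKO and 48.9 to 52.0 in WT (log2 -0.24 ± 0.06 SE, adjusted p = 0.0394). Its call was lost without any 1 library except cKO replicate 2 (0.0893, 0.0748 and 0.0615 without cKO replicates 3, 7 and 12, and 0.157, 0.0943 and 0.126 without WT replicates 10, 14 and 19), with no filter (0.0547), with the marker covariate (0.0804) and without cKO replicates 2 and 7 together (0.0923).

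Among 28 tested genes on a list of other interferon gamma targets, 2 fell and 0 rose by edgeR, as did 3.64% and 2.79% of all genes. The median log2 fold change of the 28 was 0.08. At an unadjusted edgeR p under 0.05, 4 were lower and 3 higher, as were 10.4% and 11.1% of all genes. DESeq2 called 3 lower and 1 higher (4.93% and 4.43% of all genes) and limma voom 2 and 2 (5.81% and 5.02%). Samhd1, which encodes an enzyme that breaks down deoxynucleotides and restricts retroviruses, was at 1812 to 2263 CPM in cKO and 2605 to 2853 in WT (log2 -0.42 ± 0.09, adjusted p = 0.026). That call was lost without cKO replicate 12 (0.0586), without WT replicate 10 (0.0699), 14 (0.125) or 19 (0.0751) and with the marker covariate (0.0859). Gvin1, a very large inducible GTPase, was at 4.83 to 5.77 and 7.70 to 8.15 CPM (log2 -0.61 ± 0.12, adjusted p = 0.0204), and lost its call without cKO replicate 3 (0.0539) or WT replicate 10 (0.0898), 14 (0.0794) or 19 (0.0818).

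Other genes of class I presentation and the standard proteasome gave no call by edgeR. Of 19 tested class I genes outside the members, such as the H2-Q and H2-T genes and the chaperones of the loading complex, edgeR called 0. It called 6.44% of all genes. Log2 fold changes of the 19 ran from -0.32 to 0.50, with a median of 0.04. At an unadjusted edgeR p under 0.05, 2 were higher and 1 lower, as were 11.1% and 10.4% of all genes. DESeq2 called 0, and limma voom called 1 higher (5.02% of all genes). Of 18 standard proteasome genes edgeR called 0 as well, with log2 fold changes from -0.21 to 0.21. At an unadjusted edgeR p under 0.05, 2 were lower, as were 10.4% of all genes, and DESeq2 and limma voom called 0.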

How the data were processed

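Messenger RNA of sorted CD4+ T cells was sequenced in 7 libraries, 4 cKO and 3 WT. The authors deposited whole-number counts of reads for each Ensembl gene identifier, with no normalization. Libraries were stranded and enriched for mRNA, per the labels' protocols. The build mm10 and bcl2fastq 2.17 were used, per the submitters' processing notes, and the aligner, the counting tool and its strand setting were not given in the sources used. Symbols and positions came from GENCODE M21 on the same build, which matched 37693 of 39017 identifiers.

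Members and lists were chosen with earlier results of these data known. All members are accounted for. Other genes are named where they were on a listed pathway and past the threshold, or among 11 listed by name (upstream genes, standard proteasome counterparts and Kdm6a), of which 1 is not reported here. Gene models and paralogs that overlap members, Gbp2b, Gbp11 and Psme3 were chosen after their values were seen.

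After filterByExpr and TMM scaling, cKO and WT counts were compared by edgeR 4.0.16 (R 4.3.3), using its quasi-likelihood test without covariates, with Benjamini-Hochberg adjustment over all 15968 genes and a threshold of 0.05. CPM used the same factors, and log2 CPM a prior count of 2. The SE was derived from the F statistic. CPM per kilobase used the union of annotated exons. Alternatives tried were the tools DESeq2 1.42.0 and limma 3.58.1 (voom), the scaling by DESeq2 or by upper quartiles, no filter, a stricter filter, a marker covariate, summed paralogs, a threshold of 0.1 and each library left out; removal of Gm42418 and of cKO replicates 2 and 7 together was added after the data were seen. Tested on simulated data of the cKO against WT comparison with 15766 genes, edgeR recovered 52% of the 50 genes given a log2 change of 0.5, 92% of those given 1 and 100% of those given 2 or 3, and 7.53% of its calls were unchanged genes. In that simulation every changed gene had a mean of at least 50 counts in a library of average size. Noise was drawn separately for each gene, with no shift shared across genes, so the rates hold for these settings only. Figures used matplotlib 3.10.9.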

Additional observations from a re-analysis of the deposited data

Results flagged for a closer look

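In the 4 cKO libraries, 44 genes were searched for 1 library standing apart by Dixon's ratio of the gap to the nearest library over the group's range, at its 95% critical value. Chance alone gives such a gap in about 5% of groups, and 3 were found. Gbp4 in cKO replicate 2 was at 560.4 CPM, with the other cKO libraries at 788 to 823. H2-K1 in cKO replicate 7 was at 4127 CPM, with the others at 3772 to 3813, a small difference in proportion. Ifng in cKO replicate 12 was at 726 CPM, with the others at 110.0 to 179. Groups of 3 WT libraries were not searched.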

How the results depend on the processing

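The number of all genes called was 1028, and it moved to 1615 with DESeq2, 1729 with limma voom, 607 with the marker covariate and 1644 at a threshold of 0.1; leaving out 1 library gave 419 to 1065, with 497, 419 and 466 without WT replicates 10, 14 and 19. Members called lower numbered 1 to 3 when 1 library was left out (1 without WT replicate 14 or 19, Cxcl10 alone), and members called higher 0 to 1 (Wars, without cKO replicate 2), with 1 by limma voom. Cxcl10 was called under every alternative run. Log2 fold changes changed sign in the following cases, none of them called; Irf8, at 0.35 as reported, moved the furthest of those under the marker covariate. With limma voom they were 0.07 for Irgm1, 0.03 for Irgm2 and Tap2, 0.04 for Psmb9, 0.05 for Tap1, 0.02 for Tapbp and 0.06 for Irf9. With the marker covariate they were -0.01 for Irf8, 0.03 for Irgm1 and Ifi47, 0.01 for Psmb9, 0.06 for Tap1, 0.04 for Tap2 and Psmb6 and 0.00 for Irf9. Tap1 had 0.00 with upper-quartile factors and with the stricter filter, and without cKO replicates 2 and 7 Iigp1 had -0.04, Irgm1 0.01, Tap1 0.02 and Psmb6 0.00. When 1 library was left out, values ran from -0.08 to 0.06 for Irgm1, -0.04 to 0.04 for Tap1, -0.08 to 0.02 for Tap2, -0.07 to 0.18 for Iigp1, -0.06 to 0.03 for Irf9, -0.24 to 0.06 for Irgm2, -0.12 to 0.02 for Psmb9, -0.23 to 0.02 for Psmb10, -0.09 to 0.00 for H2-K1, -0.11 to 0.01 for Psmb5, -0.06 to 0.04 for Psmb6 and -0.13 to 0.04 for Psmb7. The cause was not tested. No paired analysis was possible because the labels name no litter or pairing of the libraries. Cxcl9 was the 1 member too low to test, and Cxcl11, Ido1, Fcgr1 and H2-T3 on the other lists were not tested for low counts either.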

Other observations

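Ratios between partner genes are given here with no test. On the scale of CPM per kilobase, H2-K1 stood at 1.32 ± 0.0252 times H2-D1 in cKO and 1.32 ± 0.0307 times in WT (SD, n = 4 and 3), and Tap1 at 1.31 ± 0.0169 and 1.28 ± 0.0357 times Tap2. Psme1, an activator subunit of the immunoproteasome, stood at 2.14, 2.27, 2.67 and 2.23 times Psme3, the gene of a related nuclear activator, in cKO replicates 2, 3, 7 and 12. In WT replicates 10, 14 and 19 it stood at 2.74, 2.71 and 3.0 times, so the groups did not overlap in this ratio. Psme3 was chosen after its values were seen, and the share of gene pairs that separate in this way was not computed. The separation is therefore a description only. Tgtp1 stood at 1.05 ± 0.073 times Tgtp2 in cKO and 1.15 ± 0.032 times in WT, with cKO values from 0.946 to 1.11 and WT values from 1.13 to 1.19, though reads may be split unevenly between these paralogs.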
